A study of Mus musculus with 6 samples.

Results

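NF-Y is a transcription factor built of 3 subunits, NF-YA, NF-YB and NF-YC, which are encoded in the mouse by Nfya, Nfyb and Nfyc. Chromatin accessibility around these 3 genes was read from ATAC-seq, an assay in which the Tn5 transposase inserts sequencing adapters into open chromatin. A peak belonged to a gene when it overlapped the gene body or the 20 kb on either side of it in the GENCODE M21 annotation, on the mm10 (GRCm38) genome. By this rule 85 of the 438111 peaks in 6 peak lists were members, and merging the lists into regions gave 22 of 112852 regions in the whole genome, 7 around Nfya, 4 around Nfyb and 11 around Nfyc.

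NF-YB and NF-YC pair through histone-fold domains, which resemble those of core histones H2B and H2A, and NF-YA joins this pair to form the complete factor. NF-YA makes the specific contacts with the pentamer CCAAT, and the histone-fold pair binds the neighbouring DNA and bends it. CCAAT boxes stand upstream of many cell cycle, stress response and lipid synthesis genes, and in blood NF-Y is known for its role in stem and progenitor cells. Many NF-Y sites lie within promoters.

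The samples were 3 Control and 3 MMF-treated samples of L-GMP cells, leukemic granulocyte-macrophage progenitors that carry the leukemia stem cell (LSC) activity of a murine acute myeloid leukemia driven by the fusion oncogene MLL-AF9. The labels give the genotype of all 6 samples as WT, and every sample, Control included, was grown with mouse IL3 and sorted before tagmentation. MMF (mycophenolate mofetil) is a prodrug whose active form inhibits IMPDH, which makes the precursor of guanine nucleotides, and was applied for 24 h according to the labels, whereas the sources of the study differ on its dose and duration. The leukemia was a transplant model in mice, from which the L-GMP cells were sorted and then cultured. The labels do not say whether the 3 samples of a group came from separate cultures or animals, so p-values measure only the spread between these samples, which may be technical.

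The depth of a list was read from the lowest background, the number of reads expected over a stretch of genome at random, which was 0.62 to 0.729 in Control and 0.676 to 0.909 in MMF lists. Lists held 58496 to 63911 peaks in Control and 80893 to 86556 in MMF, and because peaks were called on each sample alone, the added weak peaks of a longer list tend to lift the percentile rank of a strong one. Of 10 markers of leukemic progenitors, 6 had a promoter peak in all 6 lists (Kit, Spi1, Cebpa, Hoxa9, Meis1 and Ptprc), while the myeloperoxidase gene Mpo had one in none. None of 5 T cell markers had a promoter peak in any list, and among 4 B cell, 5 erythroid and 5 non-blood markers only Ebf1 and Klf1 had one in all lists. The promoter ranks of 5 mature myeloid markers, Itgam, Ly6g, Cd14, Csf1r and S100a8, summed to between 132 and 167 in Control and between 222 and 249 in MMF samples, with 3 of the 5 open in all lists. Those of the 10 leukemic progenitor markers were higher as well, at 358 to 418 in Control and 439 to 506 in MMF samples. At equal list length, introduced below, the median difference was 1.49 points for the mature myeloid and −0.885 for the 9 progenitor markers with a promoter peak. The median over all promoters was −4.94 points. Mature myeloid differences ran from −26.2 (Cd14) to 34.9 (Csf1r), and progenitor differences from −11.6 (Cebpa) to 16.4 (Ptprc). In summit reads per background, 3 of 5 mature myeloid markers were higher without overlap between the groups and 0 lower. Of the 9 progenitor markers, 4 were higher and 3 lower, beside 7.62% and 15.2% of all promoters. The part of these markers in the results was not tested. Over the 41182 regions with a peak in all 6 lists, the median of log2 summit reads per background was 0.35 higher in MMF than in Control lists.

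The sequences that follow show where CCAAT stood in the open regions of the 3 genes, and the sequence of the 2 elements away from the promoters that carry the differences described later. All are written 5′ to 3′ on the strand of the gene, which is the minus strand in each case, from GRCm38. Capitals mark CCAAT, which reads ATTGG when it lies on the other strand. The promoter region of Nfya held 5 CCAAT boxes, 4 of them between 217 and 335 bp downstream of the outermost start of the gene, each of the 4 shown with 8 bases on either side, at chr17:48409679-48409699, chr17:48409652-48409672, chr17:48409599-48409619 and chr17:48409561-48409581:
Nfya box at 217 bp: agcctctgATTGGgtttcggg
Nfya box at 244 bp: tactggagCCAATcagcgcgg
Nfya box at 297 bp: atgaggagCCAATatccagcg
Nfya box at 335 bp: gcgccccgATTGGcgggtctc

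The promoter region of Nfyb held 3 boxes at 108 to 161 bp downstream of its start, at chr10:82764026-82764046, chr10:82763998-82764018 and chr10:82763973-82763993:
Nfyb box at 108 bp: aacagccgATTGGagacggga
Nfyb box at 136 bp: agggctgcATTGGaggtttgt
Nfyb box at 161 bp: cgcttcggCCAATgatcgctc

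In Nfyc the 5 boxes of the main promoter region lay downstream of the start of transcript Nfyc-201, in its intron, and 4 of them lay before another start that RefSeq annotates inside the region. None of the boxes lay in the 500 bp centred on the summit, and the stretch labelled main promoter below does not hold the summit. The 250 bases before that RefSeq start, chr4:120825210-120825459, held 4 boxes, and 132 bases upstream of the internal start, chr4:120815781-120815912, held 2:
Nfyc main promoter: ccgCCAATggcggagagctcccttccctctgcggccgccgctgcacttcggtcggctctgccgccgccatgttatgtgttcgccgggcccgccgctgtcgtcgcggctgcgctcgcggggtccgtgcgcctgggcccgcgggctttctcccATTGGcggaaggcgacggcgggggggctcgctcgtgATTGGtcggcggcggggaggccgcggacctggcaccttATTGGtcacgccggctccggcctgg
Nfyc internal start: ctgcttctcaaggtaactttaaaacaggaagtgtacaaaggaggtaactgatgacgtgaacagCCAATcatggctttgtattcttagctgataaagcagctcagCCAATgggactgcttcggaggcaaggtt

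The next sequences are the 200 bases around the summit of an element upstream of Nfya, chr17:48418371-48418570, and of an element in an intron of Nfyb, chr10:82758995-82759194. In these, capitals mark any match to CCAAT or to the consensus letters of other blood factors:
Nfya upstream element: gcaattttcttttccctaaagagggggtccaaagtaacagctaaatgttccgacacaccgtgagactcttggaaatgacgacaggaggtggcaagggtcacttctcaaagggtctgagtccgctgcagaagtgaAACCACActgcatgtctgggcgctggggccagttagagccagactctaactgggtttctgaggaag
Nfyb intronic element: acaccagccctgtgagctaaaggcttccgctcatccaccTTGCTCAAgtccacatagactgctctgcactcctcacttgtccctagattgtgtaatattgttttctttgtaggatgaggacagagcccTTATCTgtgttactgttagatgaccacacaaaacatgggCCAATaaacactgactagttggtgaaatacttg

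The letters searched, on both strands, were CCAAT for NF-Y, GAGGAAGT for PU.1, AACCACA for RUNX factors, TGANTCA for AP-1, TTGCNNAA for C/EBP factors and AGATAA for GATA factors. Matches to different letters were counted independently and may overlap, as CCAAT and TTGCNNAA can. In 200 bp centred on the summit, CCAAT was found in 8 of the 22 regions around the NF-Y genes (36.4%), in 23.5% of all regions and in 32.4% of 11556 promoter regions with a peak in all 6 lists. AACCACA, present once in the Nfya upstream element, was found in 10.7% of all regions. TTGCNNAA and AGATAA, each present once in the Nfyb intronic element, were found in 15% and 6.92% of all regions, where TGANTCA was found in 16.1% and GAGGAAGT in 8.28%. A match describes the letters of a window and is not a measured binding site.

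RefSeq promoter windows, from 250 bases before to 50 after a start on GRCm38, were matched for all 3 genes. The windows at the main starts of Nfya and at the start of Nfyb held no CCAAT, and the boxes printed for both genes lie further downstream. The window at the RefSeq start inside the main promoter region of Nfyc, chr4:120825160-120825459, held 5 boxes, where 1.06% of 32851 windows held 4 or more and 37.4% held at least 1. The window at the internal Nfyc start held 3, a count reached by 3.37% of windows.

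The promoters of all 3 subunit genes were open in every Control and every MMF sample. For Nfya, the gene of the subunit that recognizes CCAAT (ENSMUSG00000023994, chr17:48386885-48409906), the promoter peak had its summit between chr17:48409889 and chr17:48409975, around the outermost start of the gene. The interval faces the start of Oard1, a neighbouring gene on the other strand that begins at chr17:48410014, so 1 region of 1626 bp serves both genes and their promoter values are identical. The summit held 138, 148 and 134 reads in Control replicates 1, 2 and 3 and 166, 114 and 119 reads in MMF replicates 1, 2 and 3. Divided by the lowest background of each list, this was 189, 214 and 216 in Control and 183, 161 and 176 in MMF samples. Every MMF value lay below every Control value, with means of 206 ± 14.9 in Control and 173 ± 10.8 in MMF samples (SD, n = 3; change −16.1%). The exact two-sided permutation test gave p = 0.1, below which a design of 3 against 3 samples cannot go, and a p that misses a threshold does not show that groups are alike.

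Nfyb, which encodes a histone-fold subunit (ENSMUSG00000020248, chr10:82748701-82764144), had 1 promoter region of 732 bp at its start. The summit held 102, 83 and 85 reads in Control and 109, 83 and 63 reads in MMF replicates. Per background read this was 140, 120 and 137 in Control and 120, 118 and 93.1 in MMF samples. The groups did not overlap, but the lowest Control and the highest MMF value were only 0.161 apart. The means were 132 ± 10.8 and 110 ± 14.8 (SD, n = 3; change −16.7%; exact permutation test, two-sided, p = 0.1).

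Nfyc, which encodes the partner of NF-YB in the histone-fold pair (ENSMUSG00000032897, chr4:120757438-120831572), was open at 2 starts in all 6 samples. The main promoter region, chr4:120824978-120826186, spans the start of transcript Nfyc-201, and its summit held 129, 95 and 93 reads in Control and 122, 90 and 82 reads in MMF replicates. Per background read this was 177, 137 and 150 in Control and 134, 127 and 121 in MMF samples, again without overlap, with means of 155 ± 20.2 and 128 ± 6.49 (SD, n = 3; change −17.5%; exact permutation test, two-sided, p = 0.1). A further peak was called over the CCAAT boxes printed above in Control replicate 1, MMF replicate 1 and MMF replicate 3, with 66, 63 and 63 reads, and the other lists carried 1 wide peak over the region. The internal region at the start of transcript Nfyc-204, chr4:120815650-120816244, held 49, 50 and 41 reads in Control and 55, 45 and 43 reads in MMF replicates. Its values per background read were 67.2, 72.3 and 66.1 in Control against 60.5, 63.7 and 63.6 in MMF samples, which did not overlap. This region was also lower without overlap by rank, at 96.0, 94.3 and 93.8 against 93.3, 93.3 and 93.8, where the nearest values differ by less than the digits shown, and at equal list length, at 95.6, 93.9 and 93.8 against 90.1, 90.1 and 91.4. Of shared regions, those with a peak in all 6 lists, 7.68% were lower without overlap in reads per background, 5.12% by rank and 19.6% at equal length. No list held a peak at the outermost annotated start of Nfyc, that of transcript Nfyc-203, apart from a peak 1.1 kb upstream of it in MMF replicate 1.

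Non-overlapping groups were common for this measure. Of 13942 protein-coding genes with a promoter peak in at least 1 list, 15.2% had lower summit reads per background in every MMF sample than in any Control sample, and 7.62% had higher. Among the 1992 promoters whose mean over the 6 samples was as high as in the NF-Y genes, from 121 to 190 reads per background, 32.7% were lower without overlap and 0.351% were higher. The median difference of these 1992 promoters was −10.4%, and 90.3% of them had a lower mean with MMF. When each list was divided by its median over these promoters, a scaling chosen after seeing the data, the 3 differences had exact permutation p-values of 0.5 for Nfya, 0.6 for Nfyb and 0.6 for Nfyc. The lower promoter values of the NF-Y genes had the sign of most promoters of like level, and no difference particular to these genes was shown.

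**Figure D1:**
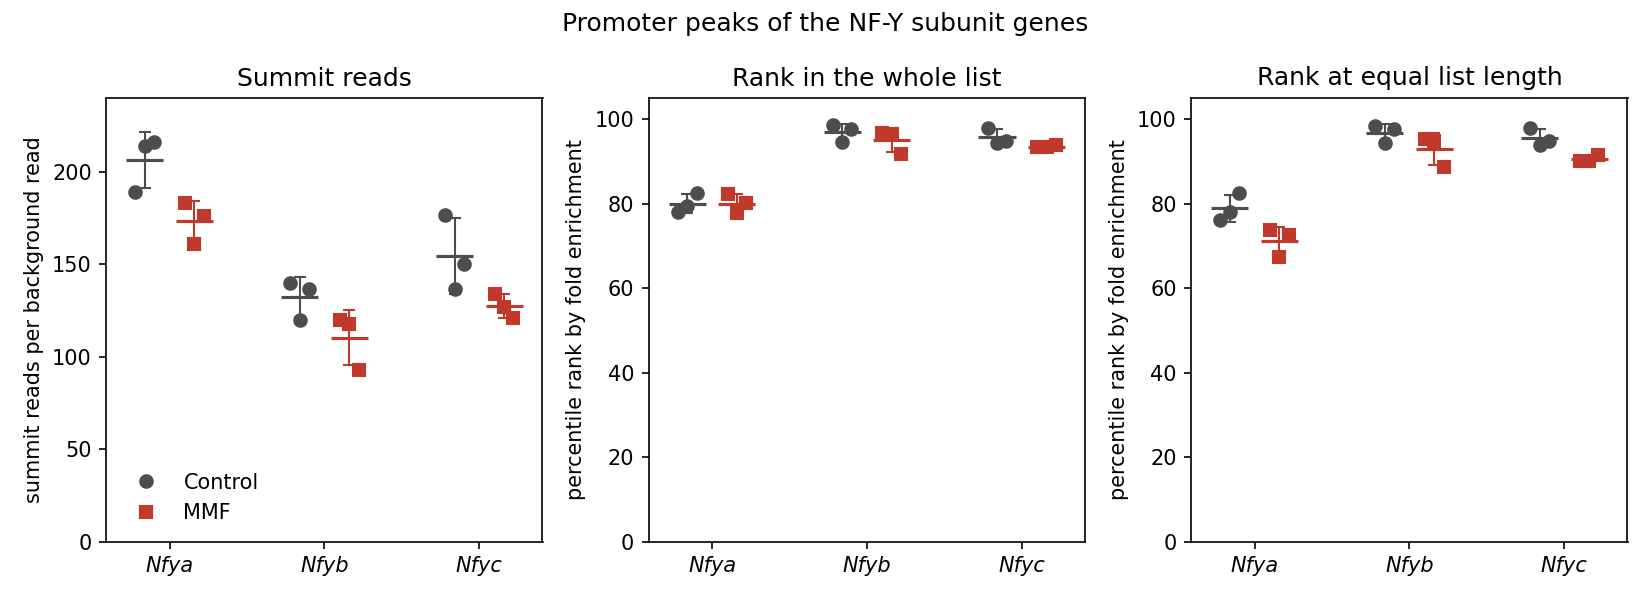
Promoter peaks of Nfya, Nfyb and Nfyc in 3 Control (circles) and 3 MMF (squares) samples, as summit reads per background read (left), percentile rank by fold enrichment in the whole list (middle) and the same rank after cutting all lists to equal length (right). Bars show mean and SD over 3 samples. The MMF points lie below the Control points in the left panel for all 3 genes, whereas in the middle panel those of Nfya lie among the Control points around 80.0.

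By percentile rank, which orders the peaks of a list by fold enrichment over the local background, the differences were 0.0391, −1.90 and −2.25 points. Whether they differ between the 3 genes was not tested. Nfya ranked at 78.1, 79.4 and 82.5 in Control and at 82.2, 77.8 and 80.1 in MMF samples, with the same mean of 80.0 in both groups (exact permutation test, two-sided, p = 1.00). Nfyb ranked at 98.5, 94.7 and 97.6 in Control and at 96.8, 96.5 and 91.8 in MMF samples, and these ranges overlapped (difference −1.90 points; exact permutation test, p = 0.5). The best-ranked promoter peak of Nfyc stood at 98.0, 94.3 and 94.9 in Control and at 93.3, 93.3 and 93.8 in MMF samples, a difference of −2.25 points without overlap (p = 0.1 by exact permutation), which was −0.190 with overlap when peaks were ranked by p (p = 0.9 by exact permutation). Promoter ranks were lower without overlap in 8.43% of the 13942 genes and higher in 8.79%. The Nfyc value mixes both of its starts, because the internal start ranked highest in Control replicate 2 and in all MMF samples and the main promoter in the other samples. Taken alone, the main promoter overlapped between the groups, at 98.0, 89.5 and 94.9 against 92.7, 93.0 and 91.1.

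Cutting every list to its 58496 peaks of lowest p, the length of the shortest list, moved the promoter ranks of all 3 genes downward with MMF. Nfya then ranked at 76.1, 78.1 and 82.5 in Control and at 73.7, 67.3 and 72.5 in MMF samples (difference −7.74 points; exact permutation test, p = 0.1), where the median difference over all genes was −4.94 points. At this length 28.6% of the promoters were lower without overlap and 2.32% were higher. Nfyc differed by −4.99 points without overlap, and Nfyb by −3.86 points with overlap.

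The members also differed from each other, in an order that depended on the measure. In reads per background Nfya stood above Nfyc in 6 of 6 samples, by 48.7 ± 23.1 on average (SD, n = 6; exact sign permutation test, p = 0.0312, 0.0468 after Benjamini-Hochberg adjustment over 12 comparisons), and Nfyc stood above Nfyb in 6 of 6, by 19.9 ± 10.5 (exact sign permutation test, p = 0.0312, adjusted 0.0468). This test pools Control and MMF samples, and 0.0312 is the smallest p that 6 samples allow. Ranked by p, Nfya and Nfyc did not separate (mean difference 0.701 points, exact sign permutation test, p = 0.219, adjusted 0.219). By fold enrichment Nfya stood lowest in 6 of 6 samples, with a mean difference from Nfyc of −5.19 (exact sign permutation test, p = 0.0312, adjusted 0.0468). The best promoter peak of Nfyc and that of Nfyb did not separate (p = 0.125, exact sign permutation test, adjusted 0.150). This Nfyc fold mixes both starts, because the internal start had the higher fold in Control replicate 2 and in all MMF samples. The main promoter of Nfyc alone had a lower fold than Nfyb in 6 of 6 samples, a difference that was not tested. The fold divides by the local background, which was 9.15 to 11.9 reads at the Nfya promoter and 3.24 to 4.81 at the Nfyb promoter. For Nfyc it was 4.59 to 6.43 at the main promoter and 1.59 to 2.33 at the internal start. Among the promoters of 13942 genes in Control samples, 99.4% lay below Nfya in reads per background and 48.2% in rank, 93.9% and 88.1% lay below Nfyc, and 86.8% and 92.4% lay below Nfyb. The Nfya values are those of the region it shares with Oard1, whose reads were not divided between the genes.

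Over the 3 windows, 8 of the 22 regions had a peak in all 6 lists (36.4%, beside 36.5% of all regions in the genome). There was 1 region gained, with a peak in 3 of 3 MMF lists and no Control list, where 6.0% of all regions were gained. No region was lost in the opposite sense, and 0.182% of all regions were. Of the other 13 regions, 8 were held by 1 list only, and 6 of these 8 lay around Nfyc in the list of MMF replicate 1, the list of highest background. In the whole genome 6.22% of regions were held by MMF replicate 1 only and 6.47% by MMF replicate 2 only. Without MMF replicate 1 the windows held 16 regions.

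**Figure D2:**
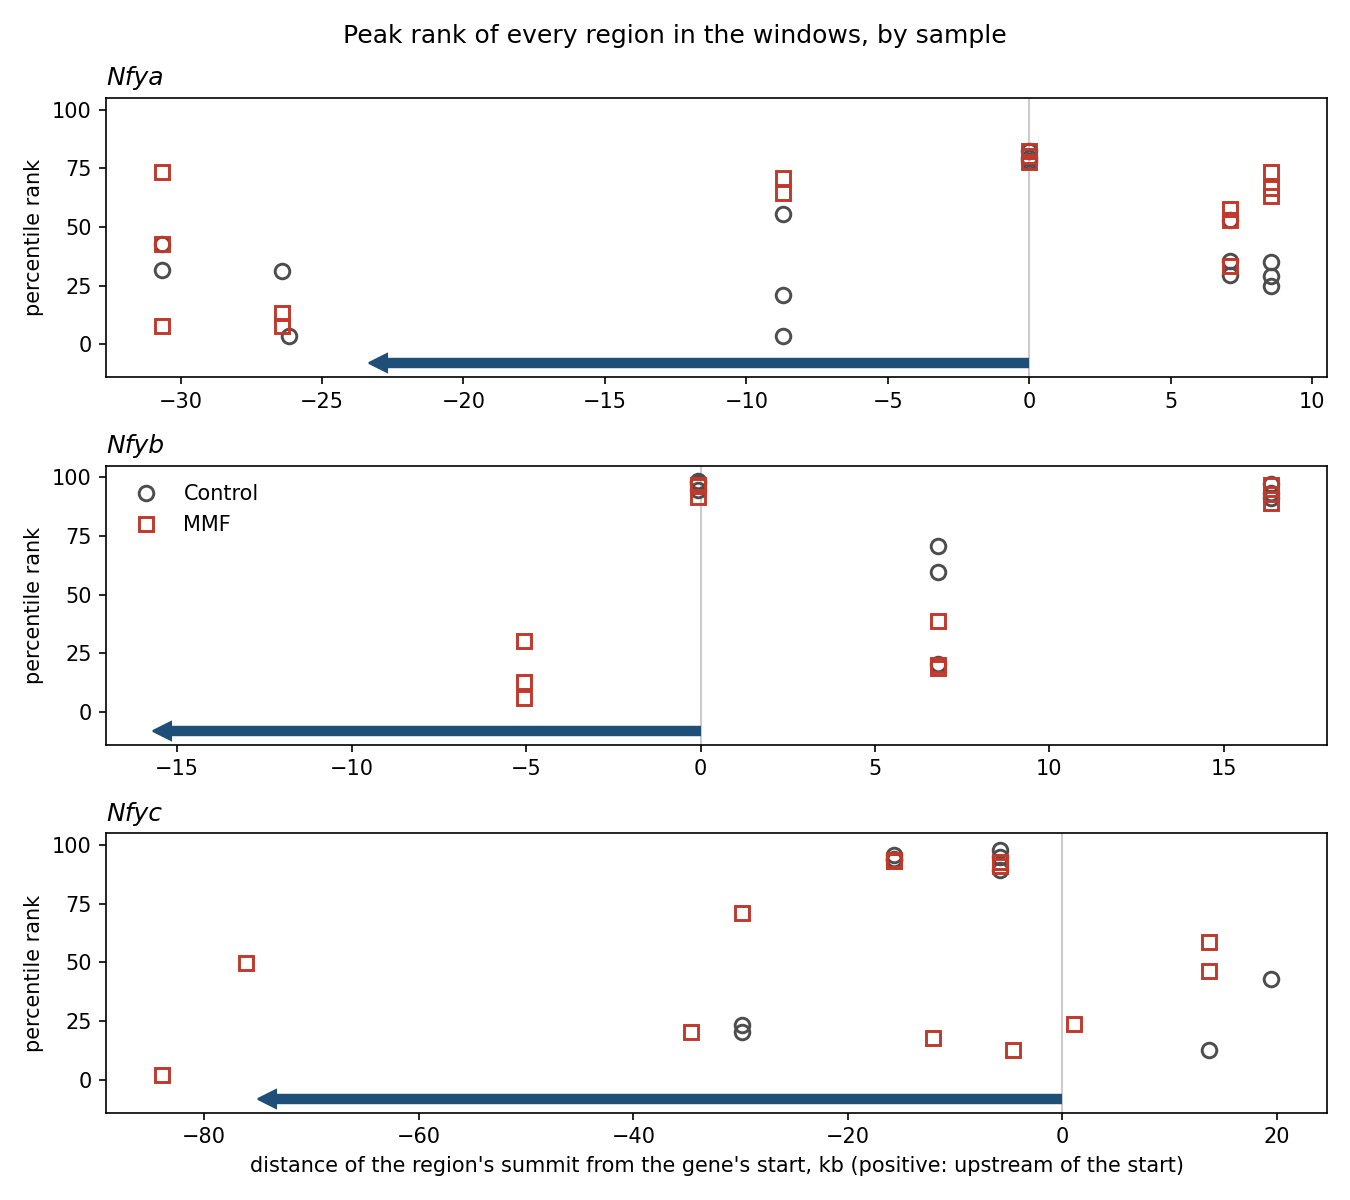
Percentile rank of every region around Nfya, Nfyb and Nfyc in each list that holds it, against the distance of its summit from the outermost start of the gene in kb, positive upstream. Circles are Control and squares MMF samples, and the bar with an arrowhead is the gene body in the direction of transcription. The element 8.6 kb upstream of Nfya has all MMF squares above all Control circles, and the Nfyc body is bare for 39.4 kb at its far end.

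The 8 shared regions were tested with limma, together with all 41182 shared regions of the genome, on normal scores of the rank. None of the 8 passed an adjusted p of 0.05, and 2 had an unadjusted p under 0.05, the element upstream of Nfya and a region upstream of Nfyb, beside 9549 of all 41182 shared regions. In the genome 1.44% of shared regions (594) were called higher with MMF and 0.425% (175) lower, a split that became 7643 higher and 399 lower on log2 summit reads per background. The 4 promoter regions had adjusted p-values between 0.342 and 0.464 by limma, with score differences of −0.27 for Nfya, −0.42 for Nfyb, −0.43 for the main start of Nfyc and −0.31 for its internal start.

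The largest difference among the shared regions by rank was at chr17:48418243-48418597, 8.6 kb upstream of the outermost Nfya start and 8.4 kb downstream of the Oard1 start. It lies in an intron of AC166164.1, an antisense RNA gene, just beyond the end of Apobec2, an APOBEC family gene expressed in muscle, which had no promoter peak in any list. Its summit held 8, 9 and 9 reads in Control and 23, 23 and 15 reads in MMF replicates. The exact 95% Poisson interval, which covers counting error only, was 4.12 to 17.1 for 9 reads, 8.40 to 24.7 for 15 and 14.6 to 34.5 for 23. All MMF counts exceeded all Control counts, although the lowest MMF count was within the interval of the Control counts.

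Per background read the Nfya upstream element measured 12.8 ± 1.77 in Control and 26.7 ± 5.34 in MMF samples (SD, n = 3; ratio 2.08; exact permutation test, two-sided, p = 0.1). Its rank was 24.7, 35.2 and 29.1 in Control and 66.7, 73.5 and 63.1 in MMF samples, and 50.7, 60.9 and 49.0 in MMF against 17.7, 31.2 and 29.1 in Control at equal list length. These values do not overlap, which held for 25% of shared regions in the direction of MMF by rank, for 11.8% at equal length and for 29.1% in reads per background. The rank difference of 38.1 points was exceeded by 3.78% of shared regions, and the difference of 13.8 reads per background by 19.1%.

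By limma the element missed the threshold, with a score difference of 0.91 ± 0.22 (SE) and an adjusted p of 0.0713. Among 12 alternatives its adjusted p ranged from 0.00623 to 0.168 by limma, and 2 of them called it. On log2 summit reads per background, where the median of shared regions was 0.35 higher with MMF, the adjusted p was 0.00623, and with normal scores over whole lists in place of shared regions, an alternative chosen after seeing the data, it was 0.0249. Leaving out any sample gave 0.127 to 0.168. The sequence is printed above, with AACCACA once and no CCAAT in these 200 bases, none of which is marked as a repeat in the genome.

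A second shared region beside Oard1, chr17:48416834-48417124, lies in a UTR of that gene 7.1 kb upstream of the Nfya start. It ranked at 53.1, 35.7 and 29.6 in Control and at 57.6, 52.8 and 33.3 in MMF samples, which overlap, and its adjusted p was 0.861 by limma. Within the Nfya body, a region at chr17:48400911-48401352, 666 bp from the start of the short transcript Nfya-203, was held by 5 lists. Its summit held 5, 7 and 11 reads in Control replicates and 21 and 14 in MMF replicates 1 and 2, while MMF replicate 3 had no peak there. The other 3 regions, beyond the far end of Nfya, held 5 to 16 reads and lay in 1 to 5 lists without separating the groups.

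**Figure D3:**
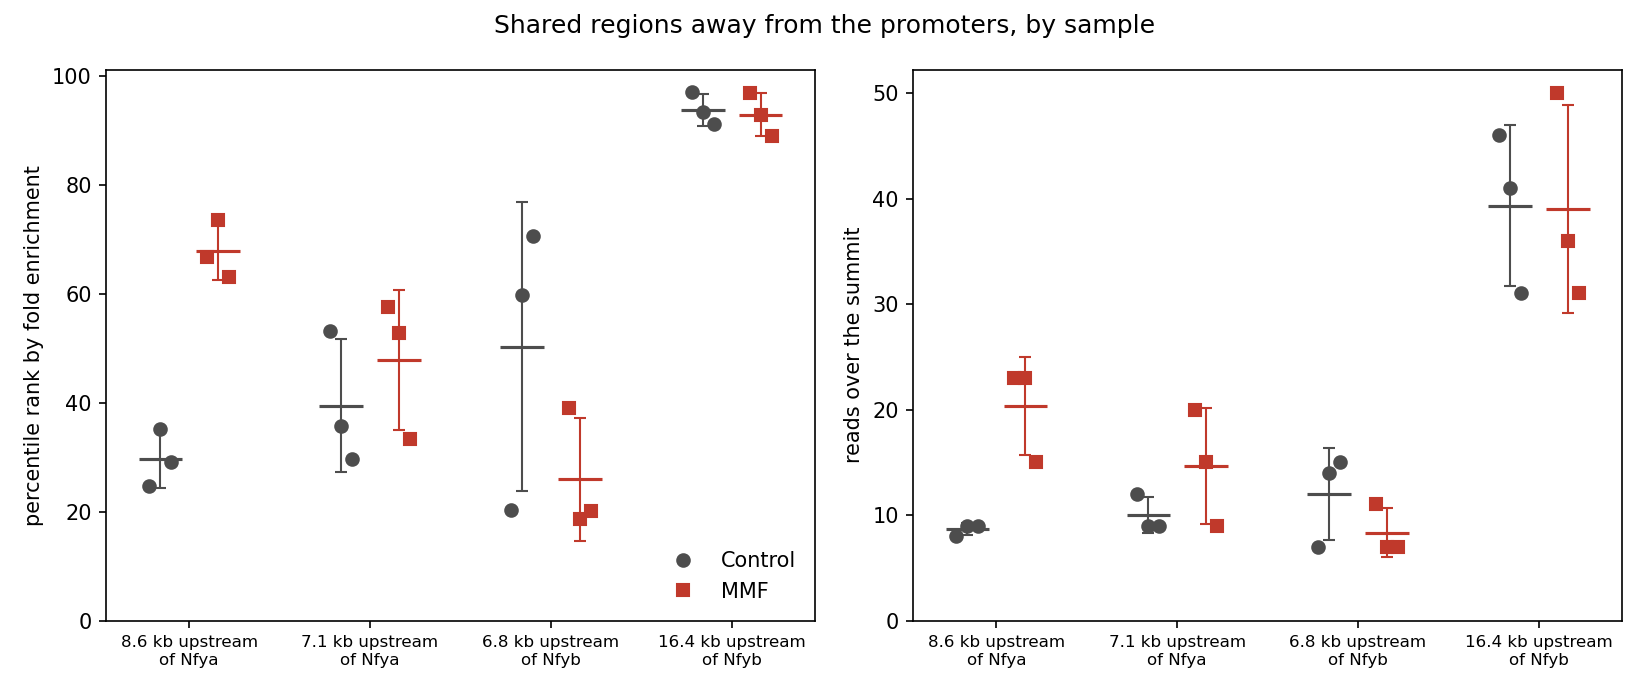
Regions away from the promoters that all 6 lists held, 8.6 and 7.1 kb upstream of Nfya and 6.8 and 16.4 kb upstream of Nfyb, as percentile rank (left) and reads over the summit (right). Circles are Control and squares MMF samples, with mean and SD over 3 samples. The groups are apart only at the element 8.6 kb upstream of Nfya, with 8 to 9 reads in Control and 15 to 23 in MMF samples.

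Around Nfyb, the gained region was the intronic element printed above, chr10:82758851-82759157, 5.0 kb downstream of the start. It held 24, 13 and 11 reads in the MMF lists and ranked at 30.3, 5.85 and 12.7, so it stood among the weaker peaks. At equal list length it was kept only in MMF replicate 1 and was no longer gained, where 1.79% of all regions were.

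A region 6.8 kb upstream of Nfyb, chr10:82770822-82771235, just before the start of the noncoding gene Gm47561, went the other way. It held 7, 14 and 15 reads in Control and 11, 7 and 7 reads in MMF replicates, and ranked at 20.3, 59.8 and 70.7 against 39.0, 18.6 and 20.1. Control replicate 1 fell among the MMF values, so the groups overlapped, and limma gave a score difference of −1.13 ± 0.42 (SE) with an adjusted p of 0.162. Leaving out Control replicate 1 gave 0.0765, and the 11 alternatives ranged from 0.0765 to 0.319 by limma. At equal list length the region was held by 3 Control lists and no MMF list and would count as lost, as would 1.05% of all regions. Of the 200 bases around its summit, 119 are marked as repeats.

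The strongest region away from a promoter lay 16.4 kb upstream of Nfyb, chr10:82780244-82780763, and differed little between the groups. It held 46, 41 and 31 reads in Control and 50, 36 and 31 reads in MMF replicates and ranked between 88.9 and 97.0 in all samples (adjusted p = 0.581, limma). Of the 200 bases around its summit, 153 are marked as repeats, and the sources used here do not state how reads with several matching places were treated. Hcfc2, a cofactor gene whose body reaches into the Nfyb window, ranked at its own promoter at 67.8, 67.8 and 70.4 in Control and at 46.5, 55.0 and 59.9 in MMF samples, which do not overlap (two-sided p = 0.1 by exact permutation). By rank, 8.43% of all promoters were lower without overlap.

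The Nfyc body is 74.1 kb long and was open mainly at the starts of transcripts Nfyc-201 and Nfyc-204. From its far end at chr4:120757438 to chr4:120796792, 39.4 kb that include the microRNA genes Mir30c-1, Mir30e and Mir30f, no list held a peak. The start of transcript Nfyc-202, at chr4:120790481, lies in this stretch. An intronic region at chr4:120801529-120801793 was held by Control replicates 1 and 3 with 7 reads each and by MMF replicate 1 with 19. Upstream of the gene, a region 13.7 kb from the outermost start held 6 reads in Control replicate 3 and 15 and 10 in MMF replicates 1 and 3, and one 19.5 kb away held 10 reads in Control replicate 2 only. The 6 regions that MMF replicate 1 alone held had 6 to 33 reads and ranked between 2.23 and 49.9. Treml1, beside Nfya, had no promoter peak in any list.

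Genes around NF-Y were described by promoter rank, with a gene counted as higher or lower when the groups did not overlap. The background for each count was 8.79% of promoters higher and 8.43% lower, with a median difference of −0.0182 points. Of 18 histone-fold relatives, genes of proteins with the same fold as NF-YB and NF-YC in TFIID, SAGA and chromatin complexes, 1 was higher and 4 were lower, with a median difference of −1.06 points. Taf4, a TFIID subunit, ranked at 85.3, 78.1 and 78.7 in Control and at 52.4, 69.3 and 68.0 in MMF samples, the most negative difference of the list. Taf8 went from 97.4 ± 0.914 to 93.4 ± 0.381 and Taf9 from 92.5 ± 0.892 to 88.5 ± 2.34 (SD, n = 3), both TFIID subunits. Taf4, Taf8 and Taf9 were lower without overlap at equal length too, as were 28.6% of all promoters. The other lower gene was Cenpx, a kinetochore component, and the higher one Taf12, which overlapped at equal length.

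Of 17 promoter partners, factors that bind beside NF-Y such as the SP, USF, RFX and SREBP proteins, 1 was higher and 1 lower, with a median of −0.731 points. Creb1, the gene of a cyclic AMP response factor, ranked at 78.9, 81.7 and 82.9 in Control and at 75.9, 74.7 and 71.5 in MMF samples. The higher one was Ciita, the class II transactivator, which overlapped at equal length. Of 26 CCAAT-box genes with a promoter peak, among 27 textbook targets of NF-Y, 2 were higher and 4 lower, with a median of −0.156 points. Hspa5, the endoplasmic reticulum chaperone BiP, ranked at 86.0, 81.8 and 84.1 in Control and at 92.2, 96.2 and 97.0 in MMF samples. Ccnb1, encoding cyclin B1, went from 90 ± 4.97 to 96.3 ± 0.825 (SD, n = 3).

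In the opposite direction stood Cdc25b, a mitotic phosphatase gene, from 86.3 ± 1.67 to 78.7 ± 1.80, the stress response factor Ddit3, from 67.9 ± 2.89 to 61.7 ± 3.42, and Fdps, a sterol synthesis enzyme gene, from 96.0 ± 1.05 to 90.7 ± 1.55 (SD, n = 3). The other lower gene was the transferrin receptor Tfrc. Cenpx, Taf12, Ciita and Tfrc are named here after their values were seen. In summit reads per background no CCAAT-box gene was higher without overlap, and 9 of 26 were lower, beside 7.62% of all promoters higher and 15.2% lower. The lower share was 32.7% among the promoters as strong as those of the NF-Y genes, but the CCAAT-box genes were not matched to that level. Whether these 9 are an excess was not tested. In the same reads Hspa5, Ccnb1 and Fdps differed by −2.38, −1.36 and −1.82 with overlap, while Cdc25b, Ddit3 and Tfrc were among the 9. Taf12, higher by rank, differed by −17.3 reads per background with overlap. Men1, Psip1, Kmt2a and Hexim2, which the study set beside Nfya after measuring RNA of such cells, so that they are no independent choice, had 0 of 4 promoters higher and 0 of 4 lower, with differences between −0.887 and 3.13 points.

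**Figure D4:**
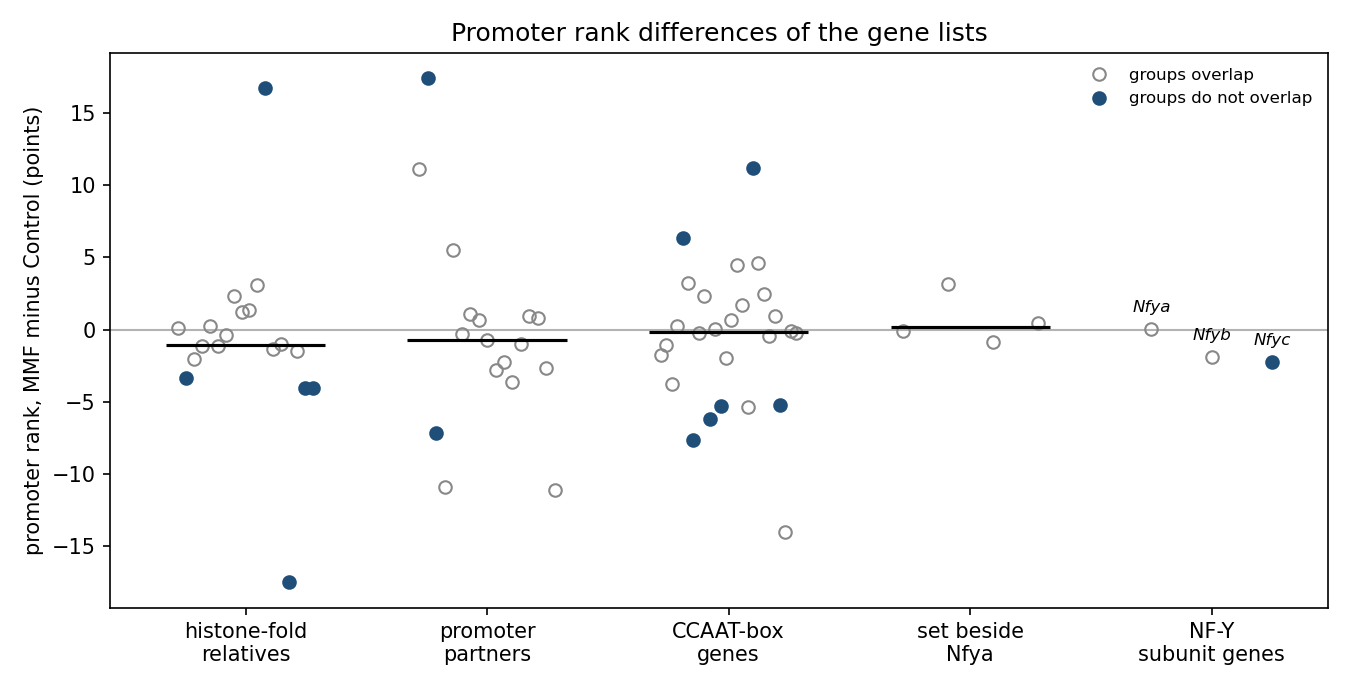
Difference of promoter rank, MMF minus Control in points, for each gene of 4 lists around NF-Y and for the 3 subunit genes. Filled points have groups that do not overlap, and the line is the median of a list. The list medians lie between −1.06 and 0.174 points, and Nfya lies at 0.0391.

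The promoters whose ranks over the 6 samples were nearest to those of a subunit gene, by Euclidean distance among 13942 genes, were named as a description. Nearest to Nfya came Oard1 at a distance of 0, which is the shared promoter, then Baz1b at 3.12 and Osbp2 at 4.01 rank points. Nearest to Nfyb were Sc5d at 1.31, Bmt2 at 1.94 and Abcf2 at 2.15, and nearest to Nfyc were Ncoa5 at 2.05, Zfp97 at 2.09 and Banf1 at 2.36. Such neighbours were many near the top of the lists, with 163 genes within 5 points of Nfyb and 208 within 5 points of Nfyc, against 7 for Nfya.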

How the data were processed

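ATAC-seq was analysed in 3 Control and 3 MMF samples. The authors mapped reads to mm10 with Bowtie2, called peaks on each sample with MACS2 and deposited 1 peak list per sample (FastQC and Trim Galore are also named, without versions). Each deposited peak gives a fold enrichment, a ratio of (reads + 1) to (background + 1) at the summit, and −log10 p and −log10 q values, while the deposited score was not used. Lists show a cutoff near 3 on the −log10 p scale. The members and gene lists were chosen with earlier results of these data known.

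Peaks on chromosomes 1 to 19, X and Y were merged over the 6 lists, and a list held a region at an overlap of 1 bp. The whole number of reads over a summit and the local background were solved from the fold and p (100% of peaks whole, within a relative error of 1e-04 of the −log10 p). The genome-wide lowest background served as the measure of depth. Median summits held 14 to 19 reads. Percentile ranks used fold enrichment within a list. Promoter peaks lay within 1000 bp of a protein-coding start in the basic annotation, and a gene took its highest peak.

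For shared regions, limma 3.58.1 (R 4.3.3) compared normal scores of the ranks, re-ranked over shared regions, without a block, with Benjamini-Hochberg adjustment at 0.05. Promoter values were compared by exact permutation. Steps were tested on simulated data. The text names the 3 subunit genes, every region and protein-coding gene of their windows, up to 3 members of a list per direction with the largest differences among those apart by both ranks, and the 3 nearest promoters, and the cell type check its markers. Alternatives covered list length, thresholds, overlap, windows, the ranking measure, scaling, motif windows, the replicate block and each replicate left out. Sequences were read from the RefSeq copy of GRCm38. Python 3.11.15, scipy 1.17.1 and pandas 2.3.3 were used. An item of the named windows is not reported here. Reads and RNA data were not analysed here.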

Additional observations from a re-analysis of the deposited data

How the results depend on the processing

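The regions that not all lists held rest on 5 to 33 reads over a summit, presence in a list depends on its length and depth, and no exact test of 3 samples against 3 can go below 0.1. At equal list length, 0 regions were gained and 1 was lost. Requiring a peak to cover 50% of a region, chosen after seeing the data, left 5 shared regions. Windows of 50 kb held 39 regions with 16 shared, and windows of 5 kb held 14 with 4 shared. Without 1 replicate the windows held 16 to 22 regions, 8 to 9 shared, with 1 gained and 0 lost. Limma called 1 of 8 shared regions, the Nfya upstream element, on log2 summit reads per background and with normal scores over whole lists, and 0 without any replicate. The Nfya promoter score difference was 0.00 with scores over whole lists. For the region 7.1 kb upstream of Nfya, the score difference reversed to 0.33 on log2 reads, to 0.22 with scores over whole lists, and to 0.06 without Control replicate 1 and 0.12 without MMF replicate 3, in a range of −0.24 to 0.12 without 1 replicate.

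The Nfya promoter rank difference became −0.0743 points ranked by p and −7.74 at equal length, and −1.06 to 1.30 without 1 replicate, reversing to −0.898 without Control replicate 1, −0.289 without Control replicate 2 and −1.06 without MMF replicate 1. Nfyb ranged from −2.99 to −0.271 and Nfyc from −2.98 to −1.11. Nfya fold enrichment as deposited differed by 0.249, against −33.2 reads per background. Without 1 replicate these reads differed by −41.7 to −27.2 for Nfya, −28.3 to −13.6 for Nfyb and −35.8 to −16.0 for Nfyc.

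At equal length, promoters higher and lower without overlap numbered 0 and 7 for histone-fold relatives (median −4.56), 0 and 6 for promoter partners (−6.35), 2 and 7 for CCAAT-box genes (−4.32) and 0 and 2 in the set beside Nfya (−3.88), beside 2.32% and 28.6% of all promoters (−4.94). In reads per background they numbered 0 and 5 (−11.4), 1 and 5 (−12.5), 0 and 9 (−13.0) and 0 and 0 (−11.3) in the same order, beside 7.62% and 15.2% of all promoters (−3.17). Ranked by p they numbered 0 and 3, 2 and 0, 3 and 2, and 1 and 0, beside 1840 and 593 of 13942 promoters. Within 500 bp CCAAT was in 59.1% of the 22 regions, 48.3% of all regions and 46.5% of shared promoter regions. Same-numbered Control and MMF replicates showed little common deviation (correlations of 0.0070, 0.0030 and 0.0042 over 41182 regions). Replicates of unlike number had correlations of −0.0057 to 0.0013. These values do not tell whether same-numbered samples came from 1 animal or culture, which the labels do not state. With the replicate block, limma called 0 of 8 shared regions (adjusted p = 0.113 for the Nfya upstream element), and exact sign permutation of the reads per background gave p = 0.25 for all 3 promoters, the smallest that 3 pairs allow, so it says nothing about stability. Over all shared regions the limma calls, 594 higher and 175 lower, became 0 with the block (8973 regions at an unadjusted p under 0.05) and without any replicate (7426 to 8639), 971 and 388 at equal length, and 2402 and 76 with scores over whole lists. The cause of these changes was not tested.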
